A study of Mus musculus with 9 samples.

Results

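The genes described here are 47 mouse genes of the antioxidant defence: superoxide dismutases, catalase, glutathione peroxidases, peroxiredoxins, thioredoxins, glutaredoxins, the enzymes that make and use glutathione, heme oxygenases, quinone reductases, and the regulators Nfe2l1, Nfe2l2 and Keap1. They were taken by symbol from the deposited expression table, which lists 24487 gene entries, and all 47 symbols were found. The study measured RNA by sequencing in 2 groups of mouse libraries on the C57BL/6 strain background: 5 of whole midbrain and 4 of dopaminergic neurons from midbrain. The labels state neither age, sex, transgene, driver of a transgene or pooling of animals, nor how RNA of dopaminergic neurons was separated from the rest. The title of the deposited table carries the term bacTRAP, which usually names the capture of tagged ribosomes, with their RNA, from a chosen cell type. Nothing in the labels says that libraries of a group came from separate animals, so the p-values measure the spread between these libraries, which may be technical.

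Superoxide dismutases turn superoxide into hydrogen peroxide, which catalase, glutathione peroxidases and peroxiredoxins then remove. The peroxidases are recharged by glutathione or by thioredoxin, both of which draw their electrons from NADPH through dedicated reductases. The factor Nrf2 (gene Nfe2l2), held in check by Keap1, switches on many of these genes through a short DNA motif, the antioxidant response element. Midbrain dopaminergic neurons make and break down dopamine, whose oxidation yields hydrogen peroxide and reactive quinones, and those of the substantia nigra are lost in Parkinson's disease.

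The core of the antioxidant response element, TGACNNNGC (N is any base), was searched on both strands in the RefSeq promoter windows of build GRCm38.p6, which run from 250 bases before to 50 bases after a gene's start. Its first letters are shared with AP-1 and CREB sites, so that a match can overlap one of those. Of the 47 genes, 40 had a promoter entry. The genes with no entry were Hmox1, Prdx6, Sod3, Gsta4, Msra, Gclc and Gsr. The core was present in 10 of the 40 genes (25.0%), against 14.0% of all 27025 genes with promoter windows. A gene counted if any of its windows matched. Counted by window, the core was present in 16.4% of 61 windows of these genes, against 12.4% of all 32851 windows. A match describes letters only. The 8 genes whose match lies before a RefSeq start are shown because they include members that were higher, lower and not different in the dopaminergic libraries. Each is printed 5′ to 3′ on the strand of its gene, with 10 bases on either side of the match and the match in capitals.
Sod1, chr16:90220696-90220724, plus strand: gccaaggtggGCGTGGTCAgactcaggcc
Txnrd1, at 1 of its starts, chr10:82859104-82859132, plus strand: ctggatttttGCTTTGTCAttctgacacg
Gclm, chr3:122245413-122245441, plus strand: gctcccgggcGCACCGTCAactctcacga
Gstm5, chr3:107895802-107895830, plus strand: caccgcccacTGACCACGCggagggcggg
Prdx1, chr4:116685456-116685484, plus strand: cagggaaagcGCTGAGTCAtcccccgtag
Nfe2l2, chr2:75704885-75704913, minus strand: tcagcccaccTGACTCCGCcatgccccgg
Gstm7, before its RefSeq start, with the match inside the gene's span in the deposited table, chr3:107931725-107931753, minus strand: tctgaagaccTGACAAAGCgaagccaatc
Mgst1, chr6:138140461-138140489, plus strand: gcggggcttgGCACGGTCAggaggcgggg

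Levels are given as FPKM, which the authors computed by scaling fragments to transcript length and to depth, so they may be compared between genes. The FPKM summed over all entries ran from 309275 to 409130 in the whole midbrain libraries and from 506466 to 521822 in the dopaminergic ones. Depth, estimated from the smallest FPKM steps, was 16.2 to 33.5 megareads in whole midbrain and 47.2 to 62.5 megareads in dopaminergic neurons. Whole midbrain library 2 stood apart: its correlation with the other whole midbrain libraries was 0.903 to 0.906, while those correlated at 0.947 to 0.962 with one another. Every value in the dopaminergic columns was written with no more than 6 significant digits, the form of Cufflinks output, against 25.5% to 28.7% of values in the whole midbrain columns. No label says why, and a difference in file handling between the groups cannot be told apart from the cell type. The defining markers of dopaminergic neurons were present as labelled: all 6 were higher in the dopaminergic libraries, with Th at 1491 to 1722 FPKM against 43.7 to 51.5. All 40 markers of astrocytes, oligodendrocytes, microglia and endothelial cells were lower there, and none was listed at 0 in a dopaminergic library.

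Most of the 47 genes were higher in dopaminergic neurons. In limma's fit across the whole table, on log2(FPKM + 1) with Benjamini-Hochberg adjustment at 0.05, 28 of the 47 were higher and 8 were lower. Of all 13106 genes tested, 38.3% were higher and 36.0% were lower (74.2% in either direction). The median log2 fold change was 0.46 for the 47 genes and 0.04 for all genes tested, and 34 of the 47 lay above that all-gene median. All 47 passed the filter of a mean of at least 1 FPKM. At least 2-fold differences were fewer: 13 genes were that much higher, against 15.1% of all genes, and 5 that much lower, against 16.7%. Because log2(FPKM + 1) is used, fold changes of low genes are understated.

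How the libraries are scaled set how many of these genes were called. For TPM, every library was rescaled to the same sum over entries other than mitochondrial genes, microRNAs and other small or structural RNAs. The median of all genes then moved by -0.65 and 14 of the 47 genes were higher and 18 lower, against 15.8% and 58.6% of all genes. With upper-quartile scaling, which moved the all-gene median by -0.21, 23 of the 47 were higher and 11 lower, and with quantile normalization 25 and 12. Of all 13106 genes, 3797 were higher and 5735 lower with upper-quartile scaling, and 4998 and 4100 with quantile normalization. The number of the 47 genes above the all-gene median was 30 with quantile normalization, 27 after a correction for exonic length and 28 after one for length and GC content. It stayed at 34 with TPM and upper-quartile scaling, which shift all genes nearly alike and so largely fix that count. Without whole midbrain library 2, 31 were higher and 10 lower, against 5654 and 4974 of 12959 genes. In all 24 settings of the analysis, 14 genes were higher: Sod1, Gpx1, Gpx4, Prdx2, Prdx3, Prdx5, Txn1, Txn2, Glrx, Glrx5, Gstp1, Gsto1, Mgst3 and Msra. The genes lower in every setting that tested them were the 6 genes Sod3, Cat, Gstm1, Gstm7, Mgst1 and Nfe2l2.

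**Figure D1:**
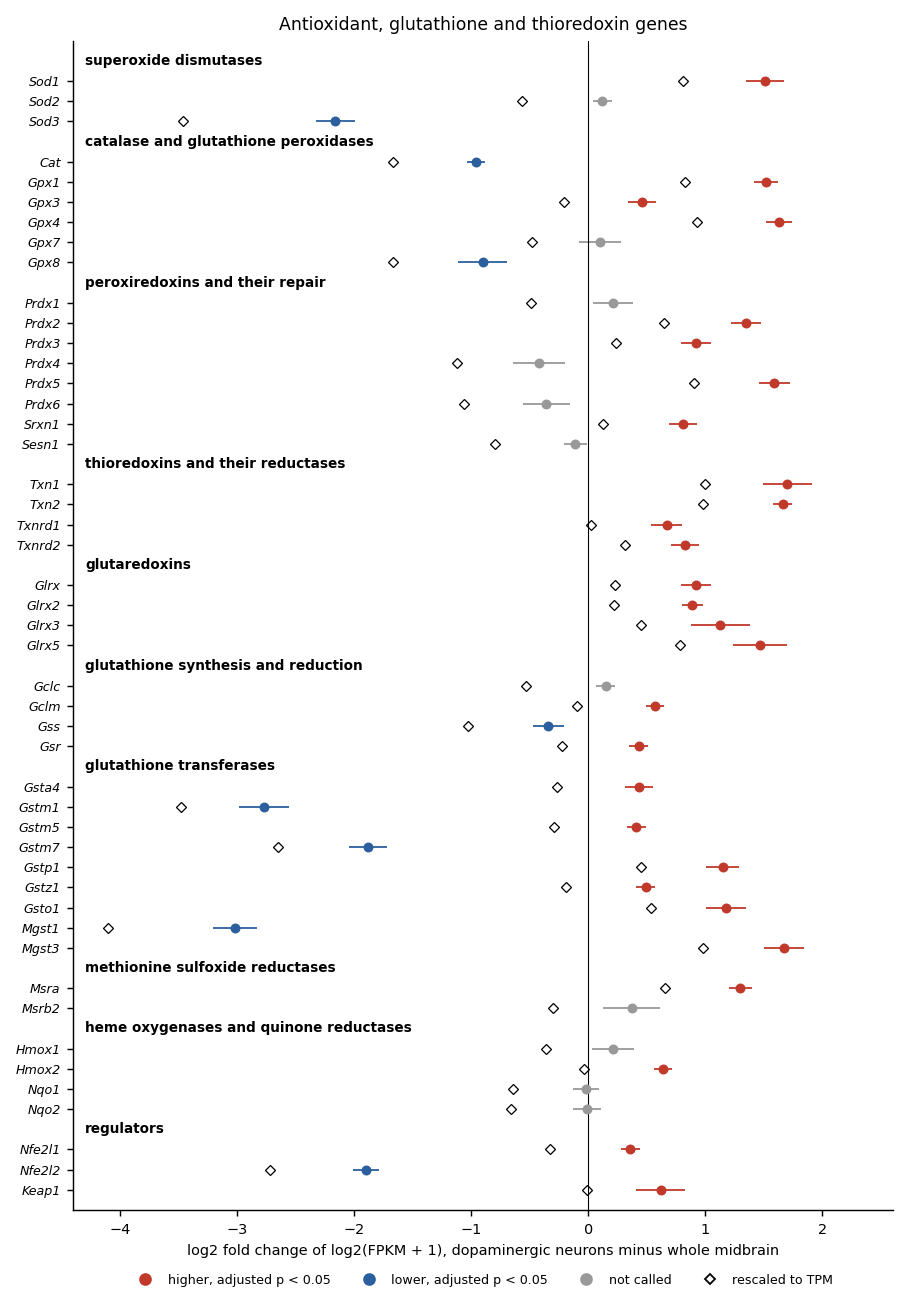
Log2 fold change of each of the 47 genes (horizontal axis, log2(FPKM + 1), dopaminergic neurons minus whole midbrain), grouped by role. Filled points with bars are the limma estimate ± 1 SE, coloured by call at an adjusted p under 0.05, and open diamonds are the same difference after rescaling to TPM, which lies lower for every gene and turns 15 of them from above to below 0.

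The share of RNA signal that these genes take was larger in dopaminergic neurons, a measure that rescaling a library by a constant leaves as it is. Together the 47 genes made up 0.836% to 0.896% of all FPKM in whole midbrain and 1.13% to 1.18% in dopaminergic neurons, with no overlap. This total includes the entries left out of the sum for TPM. Sod1 alone gave 27.4% to 32.6% of their summed FPKM in whole midbrain and 40.1% to 40.9% in dopaminergic neurons, so much of the larger share lay in Sod1. Among all entries of the table, Sod1 ranked between 17 and 31 in the whole midbrain libraries and between 7 and 9 in the dopaminergic ones.

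The counts by role given from here on stand against 38.3% of all genes higher and 36.0% lower, or 15.8% and 58.6% as TPM. Of the superoxide dismutases, the cytosolic enzyme was higher, the extracellular one lower, and the mitochondrial one did not pass the test. Sod1 (chr16:90220742-90226324, mm10), the copper-zinc enzyme of the cytosol, measured 817, 1193, 795, 719 and 754 FPKM in whole midbrain libraries 1 to 5 and 2294, 2347, 2477 and 2470.1 FPKM in dopaminergic libraries 1 to 4. The groups did not overlap, and library 2 was the highest of the whole midbrain. The mean was 2.80 times that of whole midbrain, with a log2 fold change of 1.51 ± 0.16 (SE, limma adjusted p = 1.2e-05). Sod3 (chr5:52363804-52369738), the secreted enzyme, measured 4.19, 6.43, 2.84, 4.12 and 3.74 FPKM in whole midbrain and 0.11, 0.0566, 0.171 and 0.255 FPKM in dopaminergic neurons. It was low in all libraries of the dopaminergic group, with a log2 fold change of -2.16 ± 0.17 (limma adjusted p = 1.2e-06). Sod2, the manganese enzyme of the mitochondrial matrix, measured 48.5, 59.1, 49.0, 47.7 and 46.8 FPKM in whole midbrain against 54.4, 58.6, 53.7 and 52.0 FPKM, and the groups overlapped. Its log2 fold change was 0.12 ± 0.08 (limma adjusted p = 0.208), and -0.57 as TPM (adjusted p = 5.6e-05) and -0.40 after quantile normalization. It was 0.47 after the correction for exonic length (adjusted p = 0.00118) and 0.18 without whole midbrain library 2 (adjusted p = 0.00455). In the 24 settings Sod2 was called higher in 5 and lower in 2.

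Catalase was lower, while 3 of the 5 glutathione peroxidases were higher and 1 was lower, or 2 and 1 as TPM. Gpx1 (chr9:108339080-108340344), which reduces hydrogen peroxide with glutathione, measured 59.9, 75.4, 52.2, 58.8 and 63.7 FPKM in whole midbrain and 173, 174, 187 and 178 FPKM in dopaminergic neurons. Gpx4 (chr10:80047166-80056439), which reduces lipid hydroperoxides in membranes and guards against ferroptosis, measured 63.0, 84.8, 62.6, 67.0 and 67.8 FPKM against 193, 208, 227 and 231 FPKM. Both were higher in every dopaminergic library than in any whole midbrain library, by log2 fold changes of 1.52 ± 0.10 and 1.63 ± 0.11 (limma adjusted p = 4.4e-07 and 3.5e-07). Cat (chr2:103453904-103485153), the peroxisomal catalase, measured 36.0, 32.6, 33.7, 34.8 and 34.6 FPKM in whole midbrain and 18.1, 17.4, 18.5 and 15.0 FPKM in dopaminergic neurons. Its groups did not overlap either, and its log2 fold change was -0.96 ± 0.08 (limma adjusted p = 1.4e-06). Gpx3, a secreted peroxidase, was higher by 0.46 (limma adjusted p = 0.00592), with overlapping libraries and a value of -0.21 as TPM. Gpx8, a peroxidase of the endoplasmic reticulum, was lower, with a log2 fold change of -0.90 (adjusted p = 0.00304), or -0.50 and without a call after quantile normalization (adjusted p = 0.0606), and Gpx7, from the same compartment, did not pass at 0.10.

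Among the peroxiredoxins and the enzymes that repair them, 4 of 8 genes were higher and none was lower, against 3 higher and 4 lower as TPM. Prdx5 (chr19:6906819-6909645), found in mitochondria, peroxisomes and cytosol, measured 152, 208, 149, 144 and 156 FPKM in whole midbrain and 453, 439, 529 and 527 FPKM in dopaminergic neurons. After Sod1 it was the most abundant of the 47 genes in the dopaminergic libraries, and its mean was 3.02 times that of whole midbrain (log2 fold change 1.59 ± 0.13, limma adjusted p = 1.4e-06). Prdx2 (chr8:84969648-84974313), a cytosolic peroxiredoxin known from neurons, measured 101, 144, 94.0, 98.1 and 95.8 FPKM against 267, 264, 291 and 257 FPKM. Prdx3 (chr19:60864066-60874538), the peroxiredoxin of mitochondria, measured 34.6, 50.2, 31.9, 34.7 and 36.2 FPKM against 73.0, 75.7, 73.2 and 63.6 FPKM. Neither gene's groups overlapped, and their log2 fold changes were 1.35 ± 0.13 and 0.92 ± 0.13 (limma adjusted p = 5.6e-06 and 7.3e-05). Srxn1, sulfiredoxin, which restores overoxidised peroxiredoxins, was higher by 0.81 ± 0.12 (limma adjusted p = 1.2e-04), and by 0.13 as TPM (adjusted p = 0.167).

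The other peroxiredoxins did not pass the test, and library 2 of the whole midbrain and the scaling decided several of these values. Prdx1 (chr4:116685599-116700000), the cytosolic partner of Prdx2, measured 123, 217, 118, 123 and 124 FPKM in whole midbrain and 162, 152, 159 and 161 FPKM in dopaminergic neurons. Only library 2 of the whole midbrain lay above the dopaminergic values. The log2 fold change was 0.21 ± 0.17 (limma adjusted p = 0.295) with that library and 0.37 (adjusted p = 6.6e-06) without it, but -0.49 as TPM, -0.56 after quantile normalization and -0.05 with upper-quartile scaling. Prdx6, a peroxiredoxin with phospholipase activity that is known from astrocytes, measured 39.9, 85.3, 41.9, 43.4 and 40.6 FPKM against 35.9, 36.5, 39.0 and 37.1 FPKM. Its dopaminergic values all lay below the whole midbrain ones, with a log2 fold change of -0.36 (limma adjusted p = 0.136), or -0.15 without library 2 (adjusted p = 0.0119). Prdx6 was also called lower as TPM, at -1.06 (adjusted p = 3.7e-05), and after quantile normalization, at -0.79 (adjusted p = 0.00127). Prdx4, of the secretory pathway, had a log2 fold change of -0.42, or -0.21 without library 2 (limma adjusted p = 0.108 and 0.0452). As TPM, Prdx4 was at -1.12 (adjusted p = 1.2e-04). Sesn1, a p53 target named sestrin, had a log2 fold change of -0.11 (adjusted p = 0.325), or -0.80 as TPM (adjusted p = 2.2e-05).

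All 4 thioredoxin genes were higher, or 2 of the 4 as TPM. Thioredoxins reduce disulfides in peroxiredoxins and other proteins, and thioredoxin reductases recharge them. Txn1 (chr4:57943373-57956411), of the cytosol, measured 58.0, 124, 63.5, 56.4 and 63.7 FPKM in whole midbrain and 229.9, 225, 225 and 233 FPKM in dopaminergic neurons. Txn2 (chr15:77915051-77928994), of mitochondria, measured 36.5, 28.9, 30.3, 29.4 and 33.1 FPKM against 104, 96.0, 105 and 101 FPKM. Every dopaminergic library lay above every whole midbrain library for both, with log2 fold changes of 1.70 ± 0.21 and 1.66 ± 0.08 (limma adjusted p = 3.3e-05 and 6.4e-08). The reductases were scarcer than their thioredoxins. Txnrd1, the cytosolic reductase, measured 10.6, 7.27, 10.2, 10.9 and 10.9 FPKM against 18.9, 16.2, 16.6 and 13.7 FPKM. Txnrd2, the mitochondrial reductase, measured 2.42, 3.17, 1.93, 2.94 and 3.15 FPKM against 5.32, 5.03, 5.96 and 5.87 FPKM. Neither reductase overlapped between groups, and their log2 fold changes were 0.67 and 0.83 (limma adjusted p = 8.4e-04 and 1.1e-04), or 0.02 and 0.31 as TPM (adjusted p = 0.947 and 0.0629).

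The 4 glutaredoxins, which reduce disulfides with glutathione or carry iron-sulfur clusters, were also all higher, or 2 of the 4 as TPM. Glrx5 (chr12:105032689-105040910), which serves the building of iron-sulfur clusters in mitochondria, measured 42.1, 88.7, 35.7, 39.1 and 42.8 FPKM in whole midbrain and 119, 128, 129.9 and 150.2 FPKM in dopaminergic neurons, with no overlap. Its log2 fold change was 1.47 ± 0.23 (limma adjusted p = 2.2e-04). Glrx3, another carrier of iron-sulfur clusters, measured 24.8, 55.4, 19.8, 22.0 and 24.6 FPKM against 68.0, 60.5, 61.5 and 53.4 FPKM. Library 2 of the whole midbrain was the only one to reach the dopaminergic range, and the log2 fold change was 1.13 ± 0.25 (limma adjusted p = 0.00232). Glrx, the cytosolic glutaredoxin, measured 47.1, 66.1, 42.1, 43.7 and 43.4 FPKM against 92.5, 82.9, 91.8 and 98.8 FPKM, and was higher by 0.92 ± 0.13 (limma adjusted p = 1.0e-04). Its groups were separate, as were those of mitochondrial Glrx2, which was higher by 0.89 ± 0.09 (adjusted p = 9.9e-06). As TPM, Glrx2 and Glrx3 lost their calls, at 0.22 and 0.45 (limma adjusted p = 0.239 and 0.0505).

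**Figure D2:**
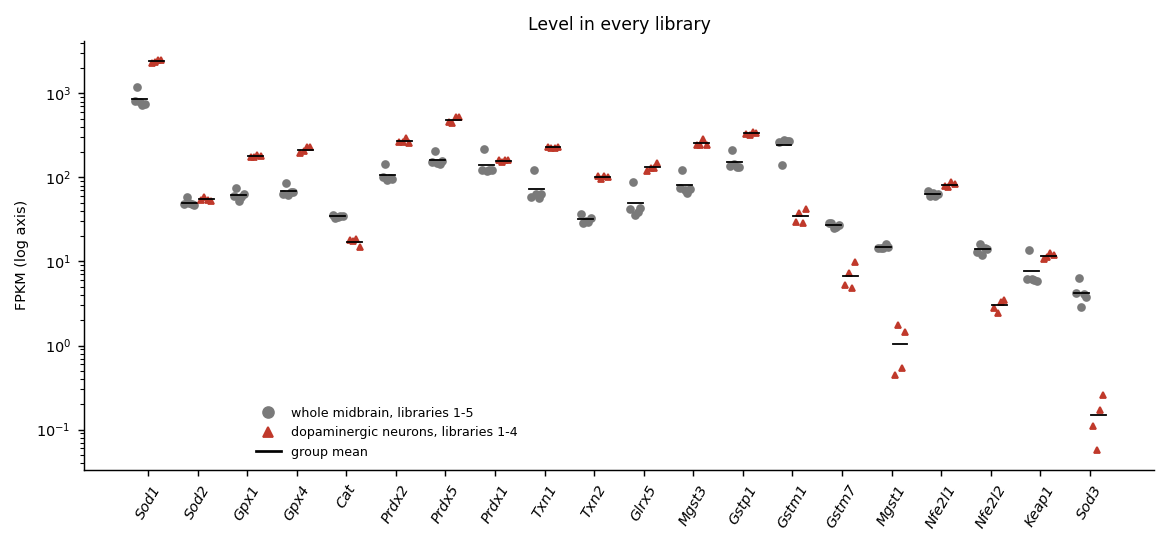
FPKM of 20 of the genes in each library (log axis), with grey circles for the 5 whole midbrain libraries, red triangles for the 4 dopaminergic libraries and black bars for group means. Sod1 is the highest in both groups (719 to 1193 against 2294 to 2477), and Gstm1, Gstm7, Mgst1, Nfe2l2, Cat and Sod3 lie lower in dopaminergic neurons.

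The genes that make and recycle glutathione showed smaller differences. Glutamate-cysteine ligase, the rate-limiting enzyme, has a catalytic subunit, Gclc, and a modifier subunit, Gclm. Gclc measured 16.9, 14.7, 18.1, 16.5 and 18.1 FPKM in whole midbrain and 18.4, 18.9, 20.2 and 17.5 FPKM in dopaminergic neurons, which overlapped (log2 fold change 0.15 ± 0.08, limma adjusted p = 0.116, and -0.53 as TPM). Gclm measured 15.6, 18.3, 14.9, 15.6 and 17.4 FPKM against 23.3, 24.7, 25.4 and 25.2 FPKM, with no overlap. It was higher by 0.57 ± 0.08 (limma adjusted p = 7.0e-05), but lay at -0.10 as TPM. Gss, glutathione synthetase, measured 14.1, 9.14, 11.9, 12.7 and 12.5 FPKM against 8.76, 7.73, 10.2 and 10.6 FPKM. The groups overlapped through whole midbrain library 2, and the log2 fold change of -0.34 ± 0.13 (limma adjusted p = 0.0348) did not pass when any one of whole midbrain libraries 1, 3, 4 and 5 or dopaminergic libraries 1 and 2 was left out (adjusted p from 0.0572 to 0.108). Gsr, which regenerates reduced glutathione, measured 6.79, 7.85, 6.76, 7.66 and 7.80 FPKM against 9.47, 11.0, 11.0 and 9.57 FPKM. It was higher by 0.43 ± 0.08 with no overlap (limma adjusted p = 7.6e-04), but lay at -0.22 as TPM.

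The glutathione transferases, which join glutathione to reactive compounds, went both ways: 6 of 9 were higher and 3 lower, or 3 and 4 as TPM. The part that was lower was close to the 36.0% of all genes, and as TPM below their 58.6%. Mgst3 (chr1:167372384-167393797), a microsomal enzyme with peroxidase activity, measured 75.6, 121, 71.2, 64.4 and 73.8 FPKM in whole midbrain and 246, 244, 283 and 242 FPKM in dopaminergic neurons. Gstp1 (chr19:4035411-4037912), of the pi class, measured 137, 213, 146, 133 and 133 FPKM against 327, 322, 350 and 333 FPKM. Both groups were apart for both genes, and the log2 fold changes were 1.67 ± 0.17 and 1.15 ± 0.14 (limma adjusted p = 7.0e-06 and 3.6e-05). Gstp2, the neighbouring and nearly identical copy of Gstp1, was also higher (72.4 ± 27.7 FPKM, SD, n = 5, against 153 ± 4.90 FPKM, n = 4), and how the counting divided reads between them is not known. Gsto1, of the omega class, measured 11.9, 18.5, 9.38, 10.3 and 9.55 FPKM against 27.5, 26.6, 29.0 and 26.6 FPKM and was higher by 1.18 ± 0.17 (limma adjusted p = 1.1e-04), with no overlap. Gsta4, which conjugates the lipid peroxidation product hydroxynonenal, Gstm5 and Gstz1 were higher by 0.43, 0.41 and 0.49 but lay at -0.27, -0.29 and -0.19 as TPM, and Gsta4 and Gstm5 at -0.25 and -0.40 after quantile normalization.

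The transferases that fell were of the mu and microsomal classes. Gstm1 (chr3:108012250-108017973), known as an abundant transferase of astrocytes, measured 265, 142, 276, 270.3 and 272 FPKM in whole midbrain and 29.4, 37.8, 29.0 and 42.4 FPKM in dopaminergic neurons. Among the 47 genes it ranked 2 by mean FPKM in whole midbrain and 23 in dopaminergic neurons, and every dopaminergic library was below every whole midbrain one. Gstm7 (chr3:107926334-107931745), another mu class enzyme, measured 28.9, 28.5, 24.8, 25.9 and 26.8 FPKM against 5.29, 7.28, 4.83 and 9.82 FPKM. Mgst1 (chr6:138140537-138156752), a microsomal enzyme, measured 14.5, 14.5, 14.6, 16.3 and 15.0 FPKM against 0.443, 1.76, 0.538 and 1.44 FPKM. Neither overlapped between groups. The log2 fold changes of Gstm1, Gstm7 and Mgst1 were -2.77 ± 0.21, -1.88 ± 0.16 and -3.02 ± 0.19 (limma adjusted p = 9.9e-07, 2.7e-06 and 2.3e-07). Mu class genes resemble one another closely, so the split of reads among Gstm1, Gstm5 and Gstm7 is uncertain.

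Of the methionine sulfoxide reductases, which repair oxidised methionine, Msra (chr14:64122621-64455903) measured 11.2, 13.6, 10.5, 10.6 and 12 FPKM in whole midbrain and 30.9, 26.5, 35.1 and 27.8 FPKM in dopaminergic neurons. Its groups were separate and it was higher by 1.30 ± 0.10 (limma adjusted p = 1.4e-06). Msrb2, the mitochondrial reductase, did not pass at 0.37 ± 0.24 (limma adjusted p = 0.188), but reached 0.59 without whole midbrain library 2 (adjusted p = 3.3e-04), where it measured 23.1 FPKM against 9.44 to 10.6 FPKM in the other whole midbrain libraries. As TPM its value was -0.30.

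Of the heme oxygenases and quinone reductases, 1 of 4 was higher and none lower, or none and 2 as TPM. Hmox1, the inducible heme oxygenase, measured 2.66, 1.37, 2.17, 3.21 and 2.99 FPKM in whole midbrain and 2.19, 3.18, 3.55 and 2.95 FPKM in dopaminergic neurons. Nqo1, a quinone reductase that detoxifies dopamine quinones, measured 4.42, 3.46, 3.39, 3.62 and 2.58 FPKM against 3.23, 3.46, 3.34 and 3.62 FPKM. The libraries overlapped in both genes and in Nqo2, the related reductase, and the log2 fold changes were 0.21, -0.02 and -0.01 (limma adjusted p = 0.311, 0.908 and 0.961). As TPM those of Nqo1 and Nqo2 were -0.64 and -0.66 (adjusted p = 0.00318 and 7.3e-04). Hmox2, the constitutive heme oxygenase, measured 31.1, 28.5, 31.6, 28.2 and 26.3 FPKM against 43.6, 50.1, 46.1 and 44.3 FPKM. It was higher by 0.64 ± 0.08 with no overlap (limma adjusted p = 3.2e-05), but lay at -0.04 as TPM.

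The regulators changed unequally. Nfe2l2 (chr2:75675519-75704641), the gene of Nrf2, measured 12.8, 16.2, 11.9, 14.6 and 14.0 FPKM in whole midbrain and 2.77, 2.44, 3.28 and 3.50 FPKM in dopaminergic neurons. Its mean was 4.64 times lower with no overlap, and the log2 fold change was -1.90 ± 0.11 (limma adjusted p = 1.6e-07). Nfe2l1 (chr11:96817414-96829968), the gene of the related factor Nrf1, which drives proteasome genes and basal antioxidant genes, measured 68.5, 59.4, 65.7, 60.6 and 63.6 FPKM against 78.7, 76.9, 88.3 and 84.6 FPKM. The groups were apart and the log2 fold change was 0.36 ± 0.08 (limma adjusted p = 0.00139), but -0.33 as TPM and -0.26 after quantile normalization. Keap1 (chr9:21229730-21239332), which marks Nrf2 for degradation, measured 6.23, 13.6, 6.25, 6.08 and 5.85 FPKM against 10.6, 11.3, 12.6 and 12.1 FPKM. Library 2 of the whole midbrain exceeded all dopaminergic libraries, and the log2 fold change was 0.62 ± 0.21 (limma adjusted p = 0.0207), -0.01 as TPM, and without a call when dopaminergic library 3 was left out (adjusted p = 0.0537).

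Ratios between 2 genes within a library do not depend on a library's total, and were compared for 10 pairs by exact permutation of the libraries (two-sided, 126 regroupings, smallest possible p 0.00794), with Benjamini-Hochberg adjustment over the pairs. They can still depend on gene length where the 2 genes differ in it, and no ratio was corrected for length. Keap1 stood to Nfe2l2 at 0.488, 0.843, 0.524, 0.417 and 0.419 in whole midbrain and at 3.84, 4.63, 3.83 and 3.47 in dopaminergic neurons. Inhibitor RNA was thus below that of its target in every whole midbrain library and above it in every dopaminergic library, a 7.55-fold shift (exact permutation p = 0.00794, adjusted p = 0.0159). Nfe2l1 to Nfe2l2 was 3.68 to 5.51 in whole midbrain and 24.2 to 31.6 in dopaminergic neurons, a 6.02-fold shift with the same p-values.

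Mitochondrial and cytosolic forms shifted in some pairs only. Sod2 to Sod1 was 0.0594, 0.0495, 0.0617, 0.0664 and 0.0621 in whole midbrain and 0.0237, 0.0250, 0.0217 and 0.0211 in dopaminergic neurons, a 2.61-fold shift towards the cytosolic enzyme (exact permutation adjusted p = 0.0159). Prdx3 to Prdx2 fell from 0.339 to 0.378 in whole midbrain to 0.248 to 0.287 in dopaminergic neurons (log2 difference -0.41, exact permutation adjusted p = 0.0159), although after quantile normalization it was -0.13 (adjusted p = 0.113). Txn2 to Txn1 was 0.63, 0.233, 0.478, 0.522 and 0.519 in whole midbrain and 0.454, 0.427, 0.467 and 0.433 in dopaminergic neurons (log2 difference -0.02, exact permutation adjusted p = 0.976). Library 2 of the whole midbrain was the low value there, and without it the difference was -0.26 (exact permutation adjusted p = 0.0408). Txn1 and Txn2 differ in exonic length (1051 and 4208 bases). After the correction for exonic length their log2 fold changes were 1.27 and 1.65, against 1.70 and 1.66 before it, so the direction of this difference is uncertain. Txnrd2 to Txnrd1 overlapped between groups, with a log2 difference of 0.33 (exact permutation adjusted p = 0.256).

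Pairs within a compartment also differed. Prdx2 to Prdx1 was 0.665 to 0.820 in whole midbrain and 1.60 to 1.83 in dopaminergic neurons, so that the more abundant of these cytosolic peroxiredoxins was Prdx1 in every whole midbrain library and Prdx2 in every dopaminergic library (2.22-fold, exact permutation adjusted p = 0.0159). Gclm to Gclc was 0.821 to 1.25 against 1.26 to 1.44 (log2 difference 0.44, exact permutation adjusted p = 0.0265), a call that was lost when dopaminergic library 1, 2 or 4 was left out (adjusted p = 0.0595, 0.0893 and 0.0893). The ratios of Gpx4 to Gpx1 and of Hmox2 to Hmox1 overlapped between groups, with log2 differences of 0.11 and 0.37 (exact permutation adjusted p = 0.147 and 0.256).

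**Figure D3:**
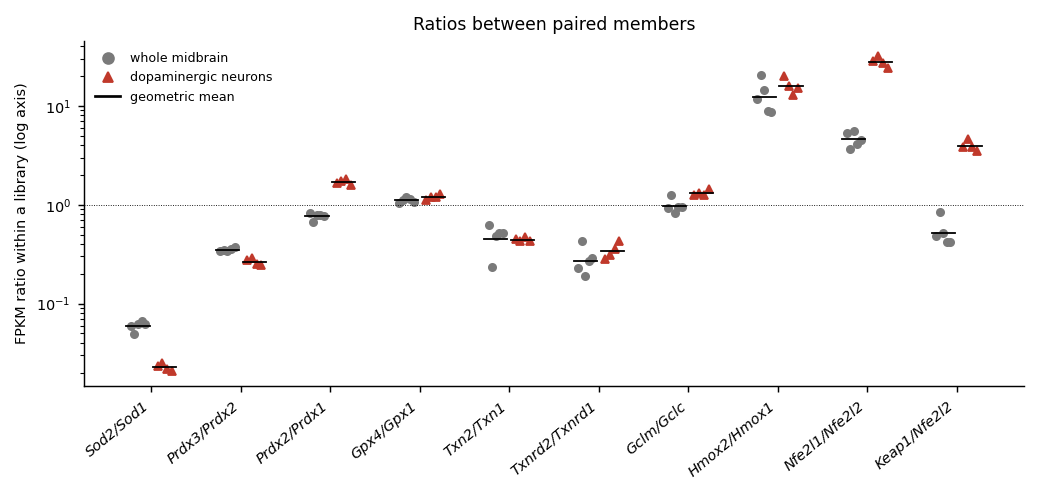
FPKM ratio within each library (log axis) for 10 pairs of genes, with grey circles for whole midbrain, red triangles for dopaminergic neurons and black bars for geometric means; the dotted line marks a ratio of 1. Keap1/Nfe2l2 crosses that line between the groups (0.417 to 0.843 against 3.47 to 4.63), as does Prdx2/Prdx1 (0.665 to 0.820 against 1.60 to 1.83).

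Markers of glia and vessels were lower in the dopaminergic libraries together with the falling genes, and in bulk samples fewer cells of a type and less RNA per cell cannot be told apart. In dopaminergic libraries 1 to 4, the 10 astrocyte markers had a median of 4.48%, 6.03%, 4.55% and 7.18% of their whole midbrain level, and the 10 oligodendrocyte markers 9.01%, 12.9%, 8.69% and 17.3%. The 10 microglial markers had 5.11%, 9.43%, 7.48% and 7.80%, and the 10 endothelial markers 1.17%, 1.69%, 0.861% and 2.59%. Summed, the astrocyte markers reached 1499 to 1607 FPKM in whole midbrain and 182 to 223 FPKM in dopaminergic neurons, and the oligodendrocyte markers 2973 to 3449 against 180.1 to 309 FPKM.

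The falling antioxidant genes kept different shares. Mgst1 kept 2.96%, 11.8%, 3.59% and 9.60% of its whole midbrain mean in dopaminergic libraries 1 to 4, and Gstm1 kept 12%, 15.4%, 11.8% and 17.3%. Both were highest in libraries 2 and 4, as were Gstm7, the summed astrocyte and oligodendrocyte markers, and 6 of the 10 astrocyte and 9 of the 10 oligodendrocyte markers taken singly. The same order held for 3 of the 10 microglial and 5 of the 10 endothelial markers, and for 0 of the 6 dopaminergic markers. The share of all genes with this order was not counted. Sod3 kept 2.59%, 1.33%, 4.02% and 5.99%, and Nfe2l2 kept 19.9%, 17.6%, 23.6% and 25.2%. Both were highest in libraries 3 and 4 and lowest in library 2, although Sod3 lay near the depth limit there, at 0.0566 to 0.255 FPKM. The astrocyte markers Gja1 and Aldoc, named after their values were seen, were also highest in libraries 3 and 4, but lowest in library 1. Cat kept the most, at 52.7%, 50.7%, 53.9% and 43.6%, and was lowest in library 4. The part of glial and vascular RNA in the falls of these 6 genes was not tested.

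**Figure D4:**
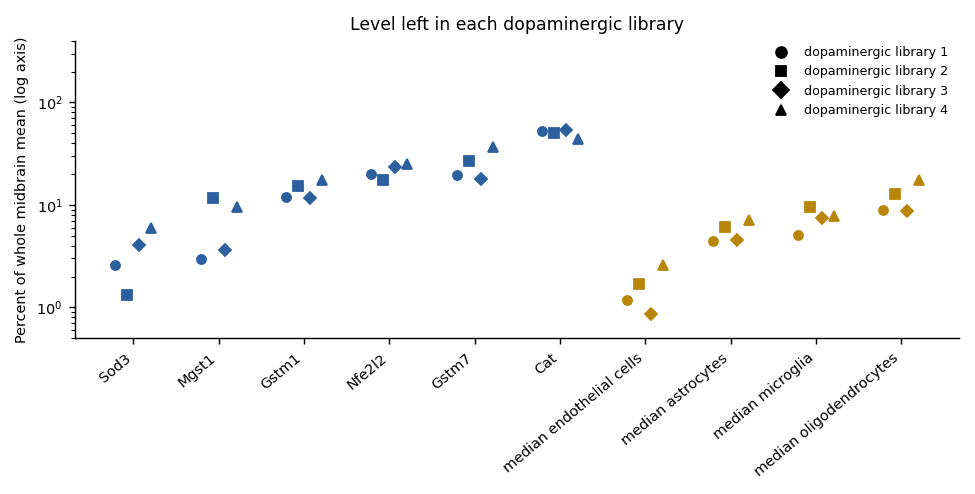
Level in each dopaminergic library as a percentage of the whole midbrain mean (log axis) for the 6 genes that were lower in every setting testing them (blue), and the median over 10 markers each of endothelial cells, astrocytes, microglia and oligodendrocytes (gold). Symbols mark dopaminergic libraries 1 to 4; Cat stays near 43.6% to 53.9%, while Sod3 and Mgst1 lie between 1.33% and 11.8%. Single markers, not drawn, had means from 0.694% to 42.1%.

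Gene length moved with the difference between groups across the table, and less so among these genes. For all genes tested with a known exonic length, the median log2 fold change was 0.64 under 1500 bases, 0.40 from 1500 to 3000, 0.09 from 3000 to 6000 and -0.25 above 6000 bases. For the antioxidant genes in the same classes (10, 14, 19 and 4 genes) it was 0.42, 0.44, 0.49 and 0.62. Whole midbrain library 2 differed from the other whole midbrain libraries by medians of 0.53, 0.31, 0.07 and -0.11 in these classes. After a correction for exonic length within each library, 26 of the 47 genes were higher and 9 lower, against 5119 and 4042 of 12432 genes. As given above, 27 of the 47 then lay above the all-gene median, in place of 34.

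Exons of 10 of the 47 genes share at least 100 bases with another gene, and the handling of strand is not given in the sources used here, so their values may include reads of the neighbour. Those neighbours on the opposite strand include Trmt112 for Prdx5 (409 bases), Junb and Rnaseh2a for Prdx2 (173 and 177 bases), Cdip1 for Hmox2 (892 bases), Acss2 for Gss (395 bases), Pomt2 for Gstz1 (465 bases) and Serpinb6a for Nqo2 (762 bases). Keap1 shares 510 bases with the antisense gene Gm16754, Gstm5 178 bases with 4933431E20Rik, and Gclm 244 bases with a pseudogene on its own strand, Gm6061.

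Other genes of these pathways were read from the same fit, in which 38.3% of all genes were higher and 36.0% lower, or 15.8% and 58.6% as TPM. Among 14 genes that supply NADPH, 7 were higher and 3 lower, or 1 and 7 as TPM. Pgls, of the pentose phosphate pathway, was higher by 1.92 ± 0.22 (7.63 ± 3.35 FPKM, SD, n = 5, against 30.1 ± 1.86 FPKM, n = 4), and Me3, a mitochondrial malic enzyme, by 0.86 ± 0.09 (limma adjusted p = 2.2e-05 and 1.1e-05). As TPM, Pgls and Me3 cannot both have kept their calls, since 1 of the 14 genes was higher. Nadk2, the mitochondrial NAD kinase, and Idh2, the mitochondrial isocitrate dehydrogenase that yields NADPH, were lower, at -1.31 ± 0.11 and -0.95 ± 0.19 (limma adjusted p = 2.2e-06 and 0.00114).

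Of 16 genes that supply cysteine or turn glutathione over, 13 were tested, with a median log2 fold change of -0.73. Of these, 4 were higher and 8 lower, or 1 and 8 as TPM, where 58.6% of all genes were lower. Cbs, cystathionine beta-synthase of the transsulfuration route, measured 8.65 ± 1.98 FPKM in whole midbrain (SD, n = 5) and 0.772 ± 0.156 FPKM in dopaminergic neurons (n = 4), with a log2 fold change of -2.43 ± 0.14. It passed the filter of 1 FPKM only through whole midbrain. Slc7a11, the cystine importer, measured 8.69 ± 2.24 FPKM against 1.98 ± 0.157 FPKM, a log2 fold change of -1.67 ± 0.16 (limma adjusted p = 1.4e-07 for Cbs and 5.4e-06 for Slc7a11). Chac1 and Ggct, which degrade glutathione and its products, were higher, by 1.73 ± 0.14 and 0.88 ± 0.11 (limma adjusted p = 1.3e-06 and 3.7e-05). As TPM, Chac1 and Ggct cannot both have kept their calls, since 1 of the 13 tested genes was higher. The astrocyte and other marker levels given above were lower in the same libraries as Cbs and Slc7a11, and their part was not tested.

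Of 28 further enzymes of the same families, 22 were tested, with 11 higher and 9 lower, or 7 and 10 as TPM. Gpx2, a glutathione peroxidase known from the gut, measured 0.0343, 0.213, 0.141 and 0.0346 FPKM in whole midbrain libraries 1, 3, 4 and 5, was listed at 0 in library 2, and measured 2.65, 4.18, 4.97 and 3.52 FPKM in dopaminergic neurons. Its fitted log2 fold change was 2.14 ± 0.15 (limma adjusted p = 4.9e-07), and its dopaminergic level was close to that of Nqo1. With a whole midbrain mean of 0.0845 FPKM, Gpx2 passed the filter of 1 FPKM only through the dopaminergic libraries. The filter thus fixed the direction of its call. Txndc17, a thioredoxin-like protein, was higher by 1.65 ± 0.27, while Gstm2 and Gstt3 were lower, at -1.99 ± 0.16 and -1.84 ± 0.11 (limma adjusted p = 2.5e-04, 1.4e-06 and 2.3e-07). Gstm2 and Gstt3 had dopaminergic means of 0.0877 and 0.595 FPKM, so they passed the filter only through whole midbrain.

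Among partners of Nrf2 and Keap1, 10 of 12 genes were tested, with 6 higher and 1 lower, or 2 and 5 as TPM. Rbx1, the ring subunit of the ligase that Keap1 serves, was higher by 1.22 ± 0.14, and Bach2, a repressor that binds related motifs, by 1.04 ± 0.08 (limma adjusted p = 1.8e-05 and 1.3e-06). Nfe2l3, the gene of the related factor Nrf3, was lower at -1.10 ± 0.12 (limma adjusted p = 1.9e-05). Of 8 genes for selenoprotein synthesis, on which the glutathione peroxidases Gpx1 and Gpx4 and the thioredoxin reductases depend, 2 were higher and none lower, or 1 and 4 as TPM. They were Sephs2, which makes the selenium donor, at 1.24 ± 0.12, and Eefsec, the elongation factor for selenocysteine, at 0.48 ± 0.12 (limma adjusted p = 6.3e-06 and 0.0033).

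In a last list of 5 genes (the copper chaperone of Sod1, DJ-1 and the metallothioneins), 2 were higher and 1 lower, or 1 and 3 as TPM. Park7, the gene of DJ-1, a redox sensor mutated in some familial Parkinson's disease, measured 68.8, 137, 63.7, 68.0 and 74.3 FPKM in whole midbrain and 228, 222, 235 and 222 FPKM in dopaminergic neurons, without overlap. It was higher by 1.51 ± 0.20 (limma adjusted p = 5.9e-05). Mt3, a metallothionein of the brain, was higher by 1.07 ± 0.38, and Mt2, a metal-inducible one, lower at -1.33 ± 0.32 (limma adjusted p = 0.0251 and 0.00368). The groups of Mt3 overlapped, at 7.5, 18.0, 5.79, 2.97 and 5.11 FPKM in whole midbrain and 13.0, 12.5, 20.9 and 15.2 FPKM in dopaminergic neurons. As TPM, Park7 and Mt3 cannot both have kept their calls, since 1 of the 5 genes was higher. Mt2 measured 308 FPKM in whole midbrain library 2 and 95.3 to 119 FPKM in the other whole midbrain libraries.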

How the data were processed

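RNA was measured in 5 whole midbrain and 4 dopaminergic libraries. Per the labels' protocols, cDNA was amplified from 2.5 ng of RNA, sheared to 200 bases, and read as single ends of 100 bases, with libraries multiplexed in pairs. The deposited values are FPKM that the authors made. TopHat2 2.0.8, Cufflinks 2.1.1 and build mm10 are named in the submitters' processing notes. Annotation and options: not given in the sources used here.

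From the FPKM, limma 3.58.1 (R 4.3.3, mean-variance trend) compared the groups on log2(FPKM + 1), keeping genes whose mean over the 9 libraries reached 1 FPKM, with Benjamini-Hochberg adjustment over all 13106. Depth came from receptor genes with a single exon, whose smallest FPKM steps matched within 1 percent. Exonic lengths and overlaps came from GENCODE M21. The fit was tested on simulated data with independent noise and a change in few genes, which cannot speak to how the libraries are scaled.

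The members, lists and tests were chosen with earlier results of these data known. Any member may be named. In each role, up to 3 passing genes with the largest rise and 3 with the largest fall (mean in the higher group 5 FPKM or more), plus the genes of the tested pairs were given by library, and up to 2 each way were named from each further list. Gstp2 was named after its values were seen. The alternatives were other pseudocounts (0.1 and 5), filters and scalings, library weights, a replicate block, leaving out each library, and corrections for length and for length with GC, both corrections chosen after seeing the data.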

Additional observations from a re-analysis of the deposited data

Results flagged for a closer look

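In each of the 94 sets formed by 1 gene and 1 group, the highest and lowest library were compared with the others by the gap to the nearest library over the whole range (Dixon's test at its 95% critical value). Chance gives about 1 in 20 sets, and 24 sets stood out. Whole midbrain library 2 was the odd library in 22 of them, high in 20 and low in 2.

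Library 2 was far above the other whole midbrain libraries for Sod1 (1193 FPKM), Sod2 (59.1 FPKM), Gpx4 (84.8 FPKM), Prdx1 (217 FPKM), Prdx2 (144 FPKM), Prdx3 (50.2 FPKM) and Prdx4 (21.0 FPKM). The same held for Prdx5 (208 FPKM), Prdx6 (85.3 FPKM), Srxn1 (33.2 FPKM), Txn1 (124 FPKM), Glrx (66.1 FPKM), Glrx3 (55.4 FPKM) and Glrx5 (88.7 FPKM). It also held for Gsta4 (120 FPKM), Gstp1 (213 FPKM), Gsto1 (18.5 FPKM), Mgst3 (121 FPKM), Msrb2 (23.1 FPKM) and Keap1 (13.6 FPKM). Library 2 was far below the others for Txnrd1 (7.27 FPKM) and Gstm1 (142 FPKM). The remaining sets were Mgst1 in whole midbrain library 4 (16.3 FPKM) and Mgst3 in dopaminergic library 3 (283 FPKM), both high.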

How the results depend on the processing

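Of 1075 values for single genes under 23 other settings, 972 kept their direction and call, 32 lost and 25 gained a call, and 46 changed sign. With TPM, 2067 of all 13106 genes were higher and 7686 lower, and 14 members were higher and 18 lower. At 2-fold or more these were 702 and 4629 of all genes, and 1 and 10 members. With a minimum mean of 5 FPKM, under which fewer genes are tested, 2493 genes were lower. With quantile normalization 4 of the 47 members were at least 2-fold higher, against 1612 of all 13106 genes. The cause of these shifts was not tested, apart from the filter. The signs that turned with TPM were Gclc -0.53, Gclm -0.10, Gpx3 -0.21, Gpx7 -0.48, Gsr -0.22, Gsta4 -0.27, Gstm5 -0.29, Gstz1 -0.19, Hmox1 -0.36, Hmox2 -0.04, Keap1 -0.01, Msrb2 -0.30, Nfe2l1 -0.33, Prdx1 -0.49 and Sod2 -0.57. With quantile normalization they were Gclc -0.05, Gsta4 -0.25, Gstm5 -0.40, Nfe2l1 -0.26, Prdx1 -0.56, Sod2 -0.40, Nqo1 0.33 and Nqo2 0.19, and with upper-quartile scaling Gclc -0.09, Gpx7 -0.07, Prdx1 -0.05 and Sod2 -0.13. With length correction they were Gpx7 -0.30, Hmox1 -0.10 and Msrb2 -0.02, and with length and GC correction Gpx7 -0.45, Hmox1 -0.17, Msrb2 -0.03 and Nqo2 0.02. Library weights gave Nqo1 0.01 and Nqo2 0.03, and median centring 0.05 and 0.06. Leaving out 1 library at a time gave -0.09 to 0.22 for Gpx7, -0.09 to 0.05 for Nqo1 and -0.07 to 0.08 for Nqo2.

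Among the ratios, quantile normalization gave -0.13 for Prdx3/Prdx2, 0.39 for Gclm/Gclc (exact permutation adjusted p = 0.113 and 0.0635), 0.17 for Txn2/Txn1 and -0.39 for Hmox2/Hmox1. Leaving out 1 library gave -0.26 to 0.09 for Txn2/Txn1 and 0.38 to 0.53 for Gclm/Gclc, and member counts of 27 to 31 higher and 7 to 10 lower. Libraries that share a number did not deviate together (correlations of -0.0498 to 0.019). Paired samples need not deviate together, so whether the numbers pair the samples is not known. With the number as a replicate block, 27 members were higher and 8 lower (all genes 4554 and 4355), Nqo2 was at 0.01, and Keap1 lost its call (limma adjusted p = 0.0556). Depth limits the lowest values: 1 read per kilobase was worth 0.016 to 0.0617 FPKM, and Sod3 measured 0.0566 to 0.255 FPKM in dopaminergic neurons.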
